A study of Mus musculus with 4 samples.

Results

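The genes described here encode BPI-fold proteins, and they are *Bpifa1*, *Bpifb1*, *Bpifb2*, *Bpifb3*, *Bpifb4*, *Bpifb5*, *Bpifb6*, *Bpifb9a* and *Bpifb9b*, 9 of the 24421 genes in the expression table. They were chosen from the measured levels themselves, because some of them were among the highest genes of the reporter-positive libraries. Their levels and the differences between libraries are therefore given as a description, with no test. RNA-seq was made from cells of the mouse main olfactory epithelium (MOE) that had been separated by fluorescence-activated sorting. The labels give C57BL/6 mice and call them adult, whereas the study's own reporting form describes juveniles. The form also gives mixed strain backgrounds for the study's mouse lines. The TAAR enhancer 1-GFP line carries TAAR enhancer 1 before the *Hsp68* minimal promoter and GFP. The study reports this element as an enhancer of the trace amine-associated receptor genes. The TAAR enhancer 2-tdTomato line carries TAAR enhancer 2 before the same promoter and tdTomato. The reporting form gives a wider age range for this line than for the TAAR enhancer 1-GFP line. Both transgenes were inserted with PiggyBac, so the reporter-negative cells of a line carry the transgene as well, and 1 founder line was kept for each enhancer. Each of the 4 groups, GFP-negative, GFP-positive, tdTomato-negative and tdTomato-positive, had 1 library, and how many animals went into a library is not given in the sources used here. No difference below could be set against a spread between replicates, and neighbours in any order of levels cannot be told apart from it.

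BPI-fold proteins are related to bactericidal/permeability-increasing protein (BPI), a lipopolysaccharide-binding protein of neutrophil granules. Many are secreted onto the wet surfaces of the nose, mouth and upper airway, where they bind lipids and are studied for roles in host defence and in the surface properties of the mucus layer. In the olfactory mucosa, secretion comes from Bowman glands and other glands and from secretory cells of the neighbouring respiratory epithelium, while olfactory sensory neurons (OSNs) detect odours.

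In the GENCODE M21 annotation of mouse GRCm38 (mm10), the 9 genes lie on chromosome 2 in 1 cluster of 445602 bases, chr2:153875045-154320646, which holds 13 *Bpif* genes, all on the plus strand. *Bpifb2* stands first, followed by *Bpifb6*, *Bpifb3* and *Bpifb4*, and these last 3 genes span 63.7 kb, from chr2:153900388 to chr2:153964101. A stretch of 179 kb that holds *Bpifa6*, *Bpifa2* and *Bpifa3* separates the end of *Bpifb4* from the start of *Bpifa1*. The other 5 genes, *Bpifa1*, *Bpifb1*, *Bpifb5*, *Bpifb9a* and *Bpifb9b*, span 178 kb, from chr2:154142880 to chr2:154320646, with *Bpifa5* between *Bpifa1* and *Bpifb1*. The longest coding transcripts have 9 exons in *Bpifa1* and up to 17 in *Bpifb6* and *Bpifb4*.

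*Bpifb9a* and *Bpifb9b* are near-identical copies 36.0 kb apart. Their coding sequences of 1773 bases each are 99.3% identical, with 13 mismatches and no gaps, while the other 35 of the 36 pairs of the 9 genes range from 31.1% to 49.3%. Of the 50-base windows of their transcripts, 71.4% occur unchanged in the other copy, so short reads from much of their length cannot be placed in 1 of them by sequence. The other 7 genes share no 50-base window with another of the 9, and their levels are not open to exchange of this kind. The 60 coding bases below, from base 82 of the coding sequence of the GENCODE M21 transcripts, are shown because they are the stretch with the most mismatches, 3, which are in capitals.
Bpifb9a: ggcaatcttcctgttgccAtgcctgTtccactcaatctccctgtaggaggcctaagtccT
Bpifb9b: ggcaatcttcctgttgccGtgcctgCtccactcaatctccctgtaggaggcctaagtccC

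All 9 genes had promoter windows in the RefSeq table for GRCm38.p6, each 300 bases long and reaching from before a start site to 50 bases after it. The letters TATAAA, read on both strands, were in windows of *Bpifa1*, *Bpifb9a* and *Bpifb9b*, the 3 highest genes of the set in the GFP-positive library, and in 13.6% of all 32851 promoter windows of the table. CCAAT was in windows of *Bpifa1* and *Bpifb4* and in 37.4% of all windows, and GGAAGT, an ETS core, was in *Bpifb3* and in 23.8% of all windows. TGTTTAC, a forkhead core, was in no window of the 9 genes and in 3.65% of all. A match of letters is a description and not a binding site. The 100 bases before the RefSeq start are shown for the 3 genes with TATAAA, in capitals, and for *Bpifb6*, which has no TATAAA and differed most from *Bpifa1* in its levels over the 4 libraries. The regions, on the plus strand, are chr2:154142780-154142879 for *Bpifa1*, chr2:154257779-154257878 for *Bpifb9a*, chr2:154307144-154307243 for *Bpifb9b* and chr2:153900288-153900387 for *Bpifb6*.
Bpifa1: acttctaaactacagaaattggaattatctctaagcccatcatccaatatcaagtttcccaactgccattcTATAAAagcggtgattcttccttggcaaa
Bpifb9a: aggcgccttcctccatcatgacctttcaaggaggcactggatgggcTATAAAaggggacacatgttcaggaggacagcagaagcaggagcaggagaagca
Bpifb9b: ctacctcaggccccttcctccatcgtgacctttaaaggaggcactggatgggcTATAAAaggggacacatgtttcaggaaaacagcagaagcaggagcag
Bpifb6: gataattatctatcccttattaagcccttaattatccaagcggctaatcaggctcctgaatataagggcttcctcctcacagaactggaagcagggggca
The promoter windows of *Bpifb9a* and *Bpifb9b* were 95.2% identical over 293 aligned positions.

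Levels are in TPM, the share of transcripts scaled by their length, which sum to 1000000 in every library, so they give no sequencing depth and no counting error. Where 1 gene is very high, the TPM of all other genes of that library is lower for it. Together, the 9 genes had 2809 TPM in GFP-negative, 132885 in GFP-positive, 9319 in tdTomato-negative and 55468 in tdTomato-positive cells. These sums were 0.281%, 13.3%, 0.932% and 5.55% of all TPM. The sum was therefore highest in GFP-positive and lowest in GFP-negative cells, and both reporter-positive libraries stood above both reporter-negative ones. Without *Bpifa1* the sums were 2169, 89748, 2676 and 2091 TPM in the same order of libraries, and the tdTomato-positive sum was then the lowest. In bulk samples such as these, fewer cells of a type and less RNA per cell cannot be told apart.

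*Bpifa1* encodes the small secreted protein also called SPLUNC1 or PLUNC, which is abundant in fluid of the nose and upper airway. It was at 640.7 TPM in GFP-negative, 43136 in GFP-positive, 6643 in tdTomato-negative and 53377 in tdTomato-positive cells. It ranked 170, 2, 3 and 1 among all genes of these libraries. It was thus the highest gene of the tdTomato-positive library, and its TPM differed little between the 2 reporter-positive libraries. *Bpifb1* encodes a longer secreted protein, LPLUNC1, known from secretory cells of the airway. It was far lower, at 6.70, 354.1, 27.1 and 239.5 TPM in the same order, and like *Bpifa1* it was highest in both reporter-positive libraries and lowest in GFP-negative cells.

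*Bpifb9b*, a mouse counterpart of rat vomeromodulin, a secreted protein of nasal glands, was at 1304 TPM in GFP-negative, 55039 in GFP-positive, 149.6 in tdTomato-negative and 1354 in tdTomato-positive cells. It was the highest gene of the GFP-positive library and ranked 50 in tdTomato-positive cells. *Bpifb9a* followed it at 395.3, 13474, 46.4 and 402.7 TPM. For both copies, the tdTomato-positive level was close to the GFP-negative level. The ratio of *Bpifb9b* to *Bpifb9a* was 3.30, 4.08, 3.23 and 3.36 in the 4 libraries, and the part that read placement had in this ratio was not tested. *Bpifb5*, their neighbour, was at 10.4, 1209, 9.78 and 34.8 TPM, high in GFP-positive cells and low in the other 3 libraries.

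*Bpifb3*, *Bpifb4* and *Bpifb6* are the 3 adjacent genes at the other end of the cluster, and *Bpifb3* and *Bpifb4* have rat counterparts first described in the olfactory mucosa. *Bpifb4* was at 213.1 TPM in GFP-negative, 8883 in GFP-positive, 85.4 in tdTomato-negative and 33.4 in tdTomato-positive cells. *Bpifb6* was at 136.1, 5922, 20 and 5.18 TPM. Both were highest in GFP-positive and lowest in tdTomato-positive cells. *Bpifb3* was at 102.6, 4867, 2337 and 20.6 TPM and stood apart, since it ranked 22 in GFP-positive, 21 in tdTomato-negative and 8007 in tdTomato-positive cells. *Bpifb2* was listed at 0 in 3 libraries and at 0.585 TPM in GFP-positive cells.

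**Figure D1:**
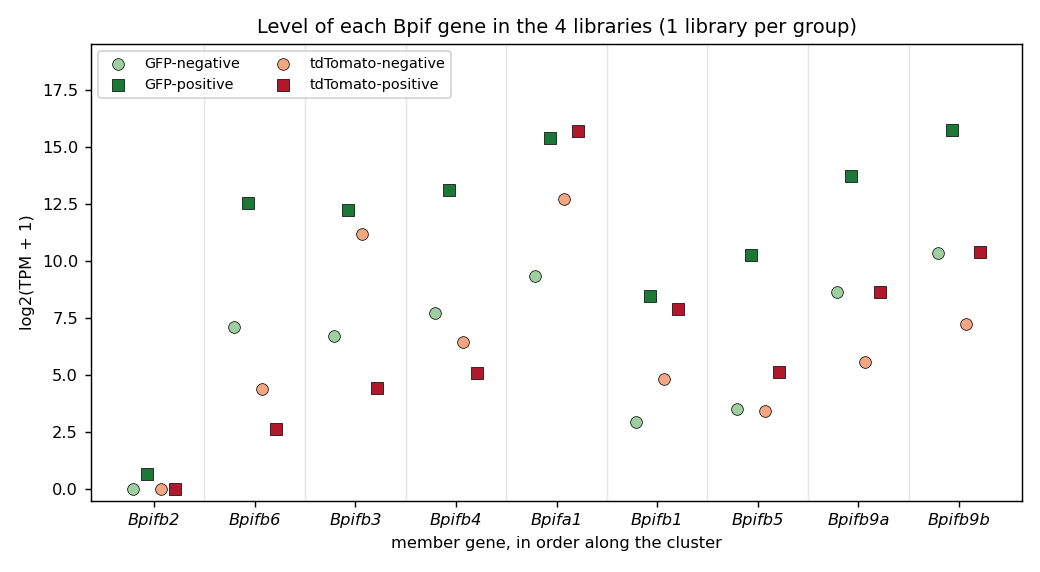
Level of each of the 9 genes as log2(TPM + 1), 1 point per library with no error bars because each group had 1 library, with genes in their order along the cluster. *Bpifa1* and *Bpifb1* are high in both reporter-positive libraries (squares), whereas *Bpifb6*, *Bpifb3* and *Bpifb4* are at their lowest in tdTomato-positive cells.

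The make-up of the summed level differed between the lines. In GFP-negative and GFP-positive cells, *Bpifb9b* held 46.4% and 41.4% of the summed TPM of the 9 genes, and *Bpifa1* held 22.8% and 32.5%. In the tdTomato-negative library *Bpifa1* held 71.3% and *Bpifb3* 25.1%, leaving 1.605% for *Bpifb9b*. In tdTomato-positive cells *Bpifa1* held 96.2%, and no other of the 9 genes passed 2.44%, the share of *Bpifb9b*. The 2 GFP libraries were thus near each other in their make-up although their sums were far apart. *Bpifb3*, *Bpifb4* and *Bpifb6* together held 16.1%, 14.8%, 26.2% and 0.107% in the 4 libraries. Within that group, *Bpifb4* was 1.57 and 1.5 times *Bpifb6* in the GFP libraries and 4.27 and 6.45 times in the tdTomato libraries.

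**Figure D2:**
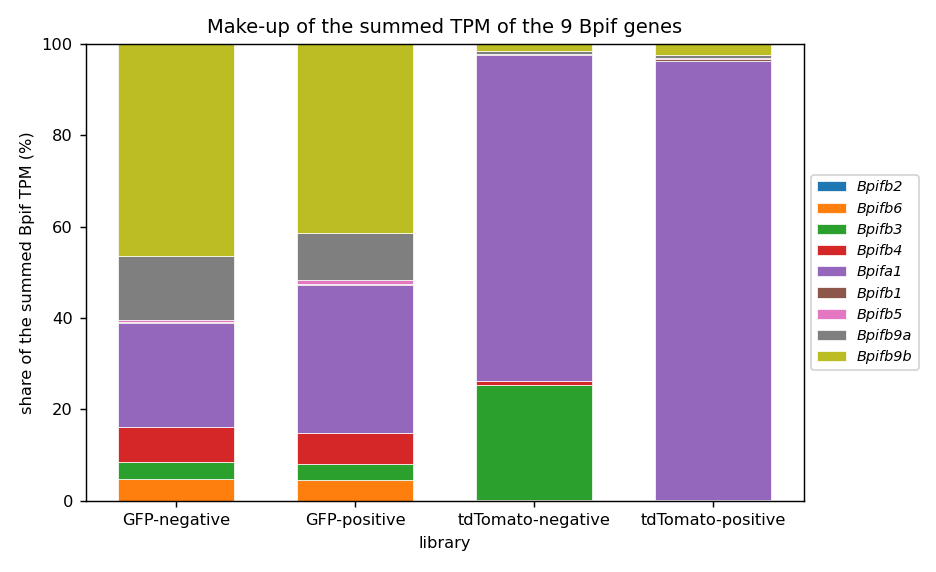
Share, in %, of the summed TPM of the 9 genes held by each gene, 1 stacked bar per library. The GFP bars are mostly *Bpifb9b* (46.4% and 41.4%) and *Bpifa1* (22.8% and 32.5%), and the tdTomato-positive bar is almost entirely *Bpifa1* (96.2%).

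The comparison of GFP-positive with GFP-negative cells sets the cells sorted as positive for the TAAR enhancer 1 reporter against those sorted as negative. Whether the genes below were expressed in the cells that made the reporter was not tested. Every one of the 8 genes above 10 TPM in either library was higher in GFP-positive cells, and the summed level was 47.3-fold higher in TPM (log2 ratio 5.56, or 6.45 with median-ratio scaling and 8.65 with scaling to mature OSN markers). Fold changes of single genes are on the log2(TPM + 1) scale, where 2 stands for 4-fold. They were 6.73 for *Bpifb5*, 6.07 for *Bpifa1*, 5.55 for *Bpifb3*, 5.53 for *Bpifb1*, 5.43 for *Bpifb6*, 5.40 for *Bpifb9b*, 5.37 for *Bpifb4* and 5.09 for *Bpifb9a*. Of these, 8 of 8 were at least 4-fold higher, beside 7.24% of the 11935 genes above 10 TPM in either library, and 0 of 8 were at least 4-fold lower, beside 18.1%. The genes were chosen from this contrast, so nothing is read from the counts. As linear ratios, 6 of the 8 lay between 34.1-fold (*Bpifb9a*) and 52.9-fold (*Bpifb1*), with *Bpifa1* at 67.3-fold and *Bpifb5* at 116.5-fold. The median fold change was 5.48 for the 8 genes and -0.96 for all genes above 10 TPM. *Bpifb2* did not reach 10 TPM, and no fold is given against a library where it was listed at 0.

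In tdTomato-positive against tdTomato-negative cells, the comparison for TAAR enhancer 2, the 8 genes split in direction by their place in the cluster. *Bpifa1*, *Bpifb1*, *Bpifb5*, *Bpifb9a* and *Bpifb9b*, the 5 genes from *Bpifa1* onward, were higher in tdTomato-positive cells. *Bpifb6*, *Bpifb3* and *Bpifb4*, the 3 adjacent genes before them, were lower. The summed level was 5.95-fold higher (log2 ratio 2.57), but this direction rested on few genes. Without *Bpifa1*, the sum was 2676 TPM in tdTomato-negative and 2091 in tdTomato-positive cells, so the log2 ratio turned to -0.36. *Bpifb3* made up 2337 of those 2676 TPM, and without both genes, a choice made after seeing the data, the sums were 338.2 and 2070.01 TPM and the log2 ratio was 2.61.

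Among the genes that were higher, *Bpifb9b* had a log2 fold change of 3.17, *Bpifb1* 3.10, *Bpifb9a* 3.09 and *Bpifa1* 3.01. These 4 genes were 8.03-fold to 9.06-fold higher as linear ratios, although their tdTomato-positive levels ran from 239.5 to 53377 TPM. *Bpifb5* was 3.55-fold higher (log2 fold change 1.73). *Bpifb3* was 113.4-fold lower in tdTomato-positive cells, with a log2 fold change of -6.76. *Bpifb6* was 3.86-fold lower (-1.77) and *Bpifb4* 2.56-fold lower (-1.33). Both kept their direction but were nearer to 0 with scaling to mature OSN markers, at -0.79 for *Bpifb6* and -0.31 for *Bpifb4*, and *Bpifb6* was at -0.98 with a pseudocount of 10. At the 4-fold limit, 4 of 8 were higher, beside 7.47% of the 12132 genes above 10 TPM in either library, and 1 of 8, *Bpifb3*, was lower, beside 1216 of the 12132 genes, or 10%. With scaling to mature OSN markers *Bpifb5* was at 2.62, so that 5 of 8 were higher at this limit. The choice of the genes used this contrast as well. The median fold change was 2.37 for the 8 genes and -0.23 for all genes above 10 TPM.

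**Figure D3:**
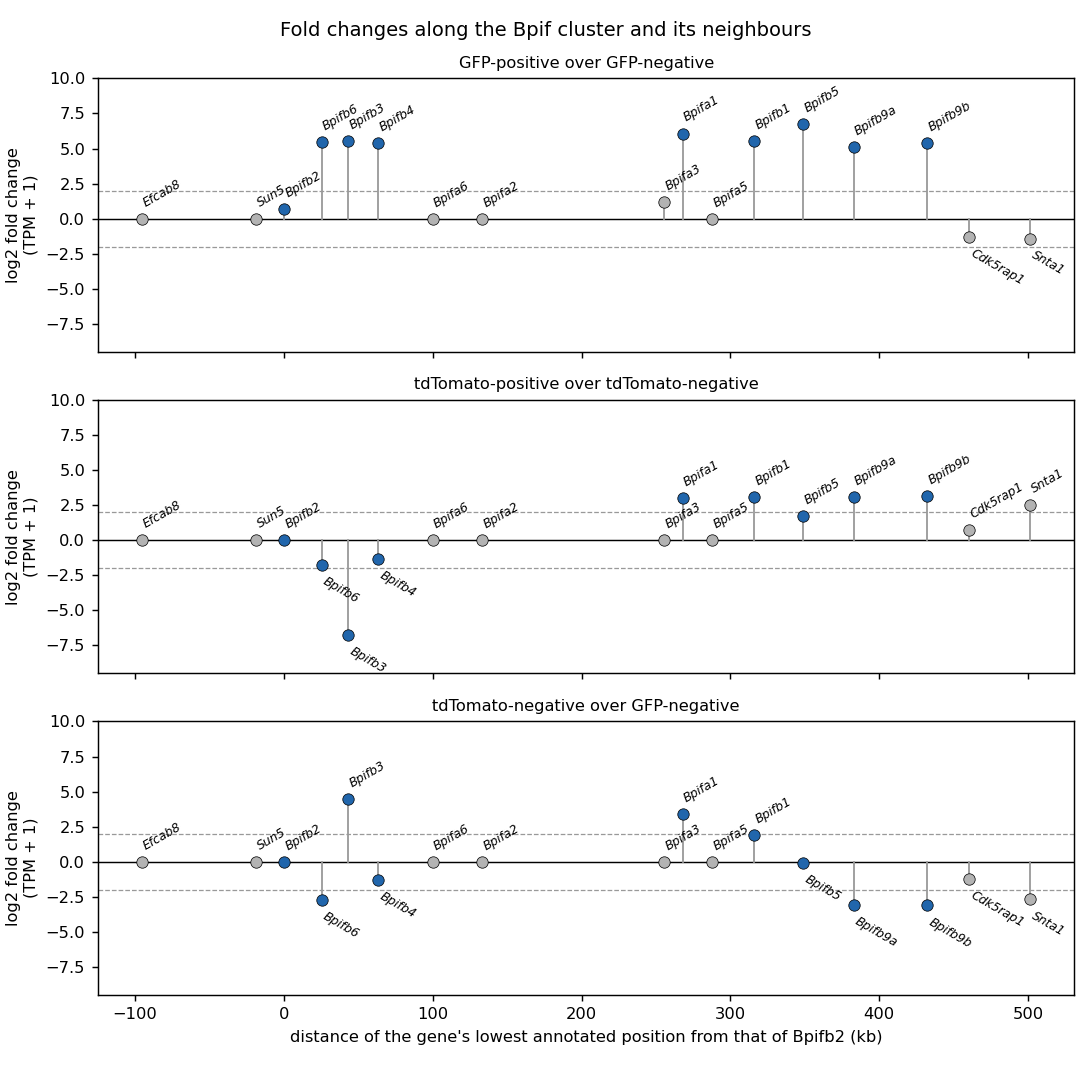
Log2 fold change on the TPM + 1 scale (vertical axis) against the distance in kb from the start of *Bpifb2* (horizontal axis) for the 9 genes (blue) and for the 4 other *Bpif* genes of the cluster and 2 neighbours on each side (grey), in 3 comparisons, with dashed lines at 4-fold. In the tdTomato line, the 3 genes *Bpifb6*, *Bpifb3* and *Bpifb4* point down and the 5 genes from *Bpifa1* to *Bpifb9b* point up.

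Genes next to the cluster were low throughout. *Efcab8* and *Sun5*, before *Bpifb2*, were listed at 0 in all 4 libraries. *Cdk5rap1*, the first gene after *Bpifb9b*, was at 26.2 TPM in GFP-negative, 9.87 in GFP-positive, 10.8 in tdTomato-negative and 18.1 in tdTomato-positive cells. Its log2 fold change was thus -1.32 in the GFP line, against 5.40 for its neighbour *Bpifb9b*.

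The 2 reporter-negative libraries were set side by side because each is the control of its line. They differed in line, reporter and sort at once and may have differed in age, and these cannot be told apart. *Bpifb3* was 22.8-fold higher and *Bpifa1* 10.4-fold higher in tdTomato-negative than in GFP-negative cells. *Bpifb9b* was 8.72-fold lower there, *Bpifb9a* 8.53-fold lower and *Bpifb6* 6.81-fold lower. *Bpifb1* was 4.04-fold higher, *Bpifb4* 2.49-fold lower and *Bpifb5* 1.06-fold lower. On the log2(TPM + 1) scale, 2 of 8 genes, *Bpifa1* and *Bpifb3*, were at least 4-fold higher, beside 2.57% of 11838 genes, and 3 of 8 were at least 4-fold lower, beside 3.13%. Neutrophil markers summed to 9272 TPM in GFP-negative and 1914 in tdTomato-negative cells, with 7 of 7 lower. Bowman gland markers summed to 3725 and 336.6 TPM, a fall of *Obp2a* and *Obp2b* alone, since the other 5 of the 7 were higher in tdTomato-negative cells and the median log2 difference was 0.46. Respiratory secretory markers were higher in 6 and lower in 2 (median 1.44). Sustentacular markers were higher in 7 of 7 (0.75) and horizontal basal markers in 5 of 5 (0.93). Nasal lipocalins were higher in 3 and lower in 3 (-1.27). Medians were -0.08 for multiciliated markers, 0.15 for mature OSN markers and 0.06 for all genes above 10 TPM. The part of any of these lists in the *Bpif* differences was not tested. The controls alone thus differed in these genes by as much as some of them differed within the tdTomato line. The lower *Bpifb3* level of tdTomato-positive cells, 20.6 TPM, was also below its GFP-negative level, 102.6 TPM.

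In TPM, the summed level of the 2 reporter-positive libraries was lower in tdTomato-positive cells by a log2 ratio of -1.26. It was -2.03 with median-ratio scaling, -3.48 with scaling to mature OSN markers, -5.42 without *Bpifa1* and -0.26 without *Bpifb9a* and *Bpifb9b*, so its size rested on both the scaling and these genes. *Bpifa1* differed least, with a log2 fold change of 0.31, followed by *Bpifb1* at -0.56. *Bpifb5*, *Bpifb9a* and *Bpifb9b* were between -5.06 and -5.34, and *Bpifb6* was at -9.91. The small difference of *Bpifa1* holds for TPM as deposited: its sign turned under all 3 other scalings, to -0.46 with median-ratio scaling, -0.18 without the highest genes and the *Bpif* genes in the total, and -1.91 with scaling to mature OSN markers. Under the same scalings *Bpifb1* was at -1.33, -1.05 and -2.78.

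The 8 other genes of the BPI and lipopolysaccharide-binding family summed to 19.8 TPM in GFP-negative, 297.9 in GFP-positive, 36.1 in tdTomato-negative and 700.5 in tdTomato-positive cells, below the *Bpif* sum in each library. In tdTomato-positive cells, however, *Lbp* and *Pltp* were above all of the 9 *Bpif* genes except *Bpifa1*, *Bpifb9a* and *Bpifb9b*. *Lbp*, which encodes lipopolysaccharide-binding protein, was at 6.77 TPM in GFP-negative, 183.0 in GFP-positive, 17.6 in tdTomato-negative and 299.9 in tdTomato-positive cells. *Pltp*, which encodes phospholipid transfer protein, was at 13.0, 112.2, 18.5 and 392.3 TPM. Both were higher in the reporter-positive library of each line, with log2 fold changes of 4.57 and 4.02 for *Lbp* and of 3.01 and 4.33 for *Pltp* in the GFP and tdTomato lines. *Bpifc* was at 1.32 TPM in GFP-positive and 8.22 in tdTomato-positive cells, *Bpifa3* was at 1.30 TPM in GFP-positive cells only, and both were otherwise listed at 0. *Bpi*, *Bpifa2*, *Bpifa5* and *Bpifa6* were listed at 0 in all 4 libraries. Of the 8 genes of this list, *Lbp* and *Pltp* reached 10 TPM, and both were at least 4-fold higher in each line, beside 7.24% and 7.47% of all genes above 10 TPM.

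Among the 10 highest genes of the GFP-positive library, *Bpifb9b*, *Bpifa1* and *Bpifb9a* stood beside genes of nasal secretion. *Obp2a*, which encodes an odorant-binding protein, a lipocalin of nasal mucus, was at 1842 TPM in GFP-negative, 41227 in GFP-positive, 86.6 in tdTomato-negative and 0.580 in tdTomato-positive cells. *Obp1a* was at 503.3, 32783, 1518 and 30.1 TPM, and *Obp2b* at 1757, 31703, 5.14 and 11.0 TPM. These 3 lipocalin genes were thus high in GFP-positive cells and low in tdTomato-positive cells, as *Bpifb4* and *Bpifb6* were. *Gm14744* was at 35912 TPM in GFP-positive and 32.7 in tdTomato-positive cells, *5430402E10Rik* at 28136 and 62.9, and *Scgb1c1*, a secretoglobin gene, at 13348 and 375.7. *Reg3g*, which encodes an antibacterial lectin, was at 453.7, 20056, 978.8 and 7113 TPM in the 4 libraries and was the only other gene than *Bpifa1* in the 10 highest of both reporter-positive libraries.

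In tdTomato-positive cells *Bpifa1* stood above all other genes by a wide margin, with *Reg3g* next. The other 8 of the 10 highest were *Cbr2*, *Cyp2a5* and *Cyp2f2*, which encode metabolic enzymes, *S100a5*, *Omp* and *Stoml3*, which mark mature OSNs, and the broadly expressed *Eef1a1* and *Tuba1a*. *Cbr2* was at 6327 TPM there and *Omp* at 4427 TPM, against 53377 TPM for *Bpifa1*. The 10 highest genes held 31.5% of all TPM in GFP-positive cells and between 5.72% and 9.44% in the other 3 libraries.

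Markers of cell types differed between the libraries as well, some in the direction of the *Bpif* sum and others against it. Their part in the *Bpif* levels was not tested. The 12 markers of mature OSNs, led by *Omp* and *Stoml3*, summed to 30717 TPM in GFP-negative, 3336 in GFP-positive, 33060 in tdTomato-negative and 15003 in tdTomato-positive cells. None was at 0 in any library, and 12 of 12 were lower in the reporter-positive library of both lines, where the *Bpif* sum was higher. At the 4-fold limit, 12 of 12 were lower in the GFP line, beside 18.1% of all genes above 10 TPM, and 0 of 12 in the tdTomato line, beside 10%. The median log2 fold change of all genes above 10 TPM was -0.96 in the GFP line and -0.23 in the tdTomato line. These medians stand beside every count of markers given as higher or lower below. The 7 markers of Bowman glands summed to 3725, 79180, 336.6 and 217.1 TPM, with none at 0, so that list was not higher in tdTomato-positive than in tdTomato-negative cells. In the GFP line, 7 of 7 Bowman gland markers were higher, and in the tdTomato line 3 were higher and 4 lower. *Obp2a* and *Obp2b* made up most of that sum in the GFP libraries, while *Gpx6* was the highest of the list in tdTomato-negative and *Aqp5* in tdTomato-positive cells, and these last are named after their values were seen. *Gpx6*, a glutathione peroxidase gene, was at 103.9, 5914, 209.0 and 7.54 TPM, the same order of libraries as for *Bpifb3*. *Aqp5*, a gland water channel gene of the list, was at 12.7, 285.7, 18.4 and 165.8 TPM, the same order of libraries as for *Bpifb1*.

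The 10 markers of respiratory secretory cells summed to 1172, 24049, 1701 and 8414 TPM, the same order of libraries as for the *Bpif* sum and for the sustentacular list below. Without *Bpifa1* the *Bpif* sum had another order, with tdTomato-positive lowest. *Reg3g* was the highest gene of the list in all libraries but GFP-negative, where *Ltf* was above it at 665.3 TPM. In the GFP line 8 genes of the list were higher and 0 lower, and in the tdTomato line 6 were higher and 2, *Muc5ac* and *Ltf*, lower. *Scgb1a1* and *Scgb3a2*, the defining secretoglobins of the list, were listed at 0 in all 4 libraries, and *Pigr* and *Dmbt1* of this list return below as genes with alike levels. The 6 nasal lipocalin genes found of 9 listed, led by *Obp1a* and *Mup4* in GFP-positive cells, summed to 1582, 67370, 2047 and 43.0 TPM. At the 4-fold limit, 6 of 6 were higher in GFP-positive cells, beside 7.24% of all genes above 10 TPM. *Obp1a*, *Lcn11* and *Mup4* reached 10 TPM in the tdTomato line, and 3 of 3 were lower in tdTomato-positive cells, beside 10%. *Mup5*, *Lcn3* and *Lcn4* were below 10 TPM in both tdTomato libraries, so no direction is read from them. Sustentacular cell markers, 7 genes led by *Cbr2* and *Cyp2a5* in GFP-positive cells, summed to 1437, 13676, 2456 and 12931 TPM. In the GFP line 7 of these 7 were higher, and in the tdTomato line 5 were higher and 2, *Cyp2g1* and *Cyp1a2*, lower, and their median was 0.55 on the log2 scale. The 10 markers of multiciliated cells, of which *Ccdc153* and *Dynlrb2* were highest in tdTomato-positive cells, summed to 909.6, 2624, 879.7 and 8085 TPM, and 9 of 10 and 10 of 10 were higher in the GFP and tdTomato lines. The 5 markers of horizontal basal cells, led by the keratin genes *Krt15* and *Krt5* in GFP-positive cells, summed to 43.9, 608.1, 113.4 and 32.2 TPM. Neutrophil markers, 7 genes led by *S100a9* and *Ngp* in GFP-negative cells, summed to 9272, 66.1, 1914 and 3.72 TPM, and *Bpi* itself was listed at 0.

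**Figure D4:**
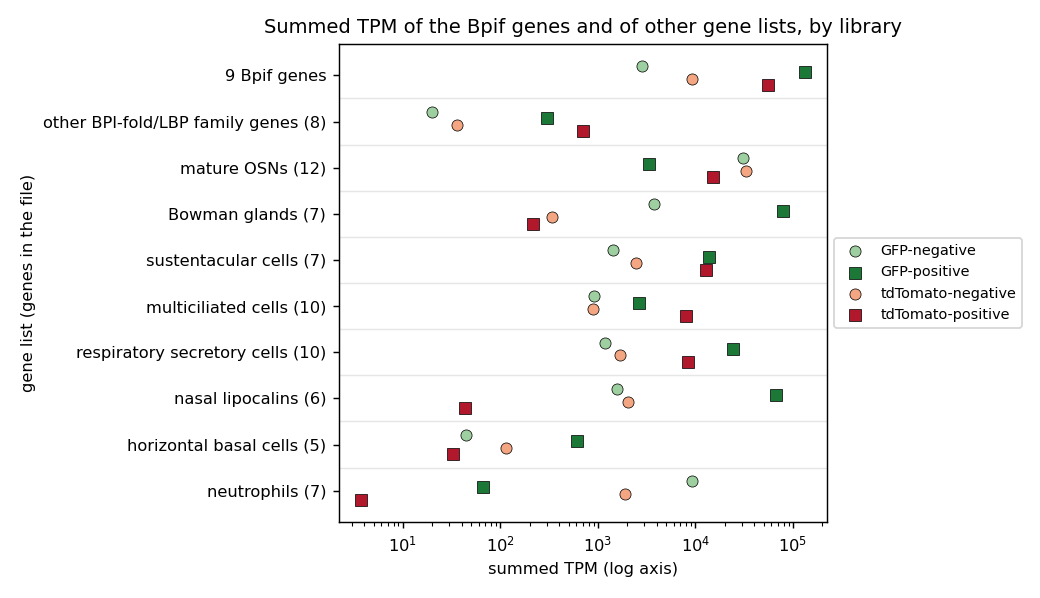
Summed TPM (log axis) of the 9 *Bpif* genes and of each gene list, 1 point per library, with the number of genes found in brackets. The *Bpif* sum, the respiratory secretory list and the sustentacular list have the same order of libraries, whereas the Bowman gland and nasal lipocalin lists are lowest in tdTomato-positive cells (217.1 and 43.0 TPM). Without *Bpifa1*, which is not drawn, the *Bpif* sum is lowest in tdTomato-positive cells too (2091 TPM).

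The 2982 other genes that reached 100 TPM in any library were ranked by likeness to a *Bpif* gene. The measure was the root-mean-square difference, over the 4 libraries, of log2(TPM + 1) centred on each gene's own mean, where 0 is an identical profile. With 4 points that share 2 lines and 2 sorts it is a description only. For *Bpifa1*, the nearest genes were *Pigr*, which encodes the receptor that carries immunoglobulins across secretory epithelia, at 0.109, *Serpina9* at 0.237 and *Anxa8* at 0.323. *Pigr* was at 5.96, 512.2, 83.1 and 556.3 TPM, so it ran parallel to *Bpifa1* at a far lower level. For *Bpifb9b* and *Bpifb9a*, the nearest genes were *Dmbt1*, which encodes a mucosal scavenger receptor protein, at 0.394 and 0.488, then *Odam* at 1.22 and 1.24 and *Gkn3* at 1.39 and 1.34. *Dmbt1* was at 15.3 TPM in GFP-negative, 654.6 in GFP-positive, 0 in tdTomato-negative and 9.44 in tdTomato-positive cells. *Odam* was at 229.2 TPM in GFP-positive and 5.85 in tdTomato-positive cells and listed at 0 in both reporter-negative libraries. *Gkn3* was at 8.97 TPM in GFP-negative and 100.3 in GFP-positive cells and listed at 0 in both tdTomato libraries. Values of 0 enter these profiles through the pseudocount alone.

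The other genes of the set had different nearest genes, which were looked up after the values had been seen. These were *Cxcl17*, a mucosal chemokine gene, for *Bpifb1* (0.188), *Ces1a*, a carboxylesterase gene, for *Bpifb4* (0.216), *Odam* for *Bpifb5* (0.541), the lipocalin gene *Mup5* for *Bpifb6* (0.682) and the protease gene *Prss33* for *Bpifb3* (0.861). Within the set, *Bpifb9a* and *Bpifb9b* were most alike (0.141), followed by *Bpifa1* and *Bpifb1* (0.625) and by *Bpifb4* and *Bpifb6* (0.837). *Bpifa1* and *Bpifb6* were the least alike (4.41).

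**Figure D5:**
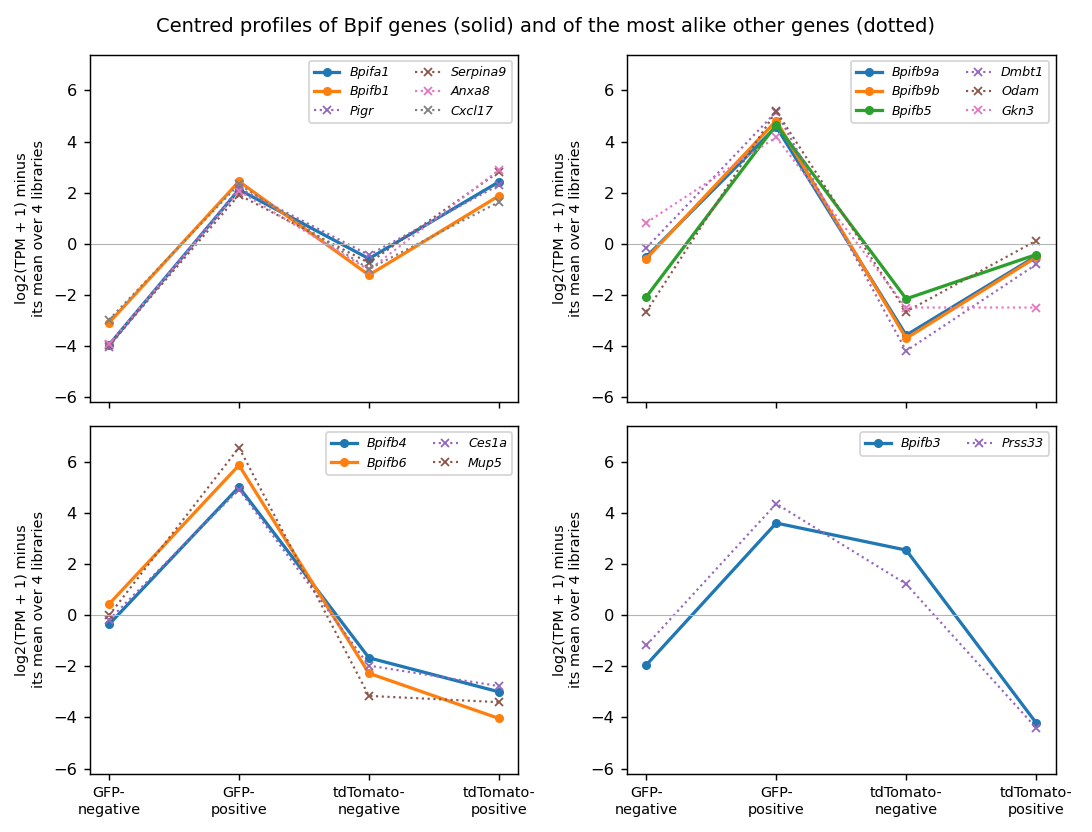
Log2(TPM + 1) minus the gene's mean over the 4 libraries, for *Bpif* genes (solid lines) and the other genes nearest to them (dotted lines), where lines only join the values of 1 gene. *Bpifa1* and *Bpifb1* peak in both reporter-positive libraries, *Bpifb9a*, *Bpifb9b* and *Bpifb5* in GFP-positive cells alone, and *Bpifb3* is high in GFP-positive and tdTomato-negative cells.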

How the data were processed

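RNA was extracted from sorted MOE cells and sequenced, 1 library per group. The authors deposited TPM per gene symbol for all 4 libraries, and no counts were analysed here, so depth is unknown. The submitters' processing notes name Trimmomatic 0.36, Salmon 1.4.0 and mm10, the study's methods name Hisat2, Cufflinks and featureCounts, and which of them gave the TPM, and the annotation, are not given in the sources used here. Labels and methods also name different RNA and library kits.

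Fold changes were computed as log2(TPM + 1) differences. Background shares used genes with at least 10 TPM in either library of a pair and a 4-fold limit, and ratios of sums had no pseudocount. With 1 library per group there was no test. Named genes were the 9 members, the 10 highest genes of each reporter-positive library, family genes with at least 1 TPM, the 3 genes most alike to each of the 3 highest members, and the highest markers of each list. The members and lists were chosen with earlier results of these data known. Positions and sequences came from GENCODE M21 and RefSeq. Alternatives were other pseudocounts (0.1 and 10), filters, fold limits and scalings. Scripts used Python 3.11.15, pandas 2.3.3, NumPy 2.4.6, Biopython 1.88 and matplotlib 3.10.9 and were tested on simulated data.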

Additional observations from a re-analysis of the deposited data

Results flagged for a closer look

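*Bpifb3*, *Bpifb4* and *Bpifb6* were each higher in the reporter-positive library of the GFP line and lower in that of the tdTomato line. *Bpifb3* had log2 fold changes of 5.55 and -6.76. *Bpifb4* had log2 fold changes of 5.37 and -1.33. *Bpifb6* had log2 fold changes of 5.43 and -1.77. Each line had 1 library per group, so the difference between the lines was not tested. The tdTomato-negative level enters the second value of each gene, and for *Bpifb3* that level, 2337 TPM, was 22.8 times the GFP-negative level.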

How the results depend on the processing

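No paired analysis was possible because, within a line, a group is 1 library, and a joint fit, which would take the 2 enhancers as replicates of 1 condition, was not run. Scaling by the median ratio over 11943 genes shifted the median fold change of all genes by 0.85 in the GFP line and 0.15 in the tdTomato line, and scaling to the mature OSN markers shifted it by 2.98 and 1.00. The log2 ratio of the *Bpif* sum in the GFP line was 5.56, and became 6.45 with median-ratio scaling and 8.65 with OSN scaling. In the tdTomato line it was 2.57, and became 3.61 with OSN scaling and -0.36 without *Bpifa1*, which reversed it, but 2.61 without *Bpifa1* and *Bpifb3*, an alternative chosen after seeing the data. For tdTomato-negative over GFP-negative it was 1.73, and became 0.30 without *Bpifa1*, the highest gene by its summed TPM over the pair, and 3.04 without *Bpifb9a* and *Bpifb9b*. For tdTomato-positive over GFP-positive it was -1.26, and became -2.03 with median-ratio scaling, -3.48 with OSN scaling, -5.42 without *Bpifa1* and -0.26 without *Bpifb9a* and *Bpifb9b*. Of 168 single-gene values under alternatives in these 4 comparisons, 123 moved by less than 1.5-fold and 45 further. The 3 that changed sign were those of *Bpifa1* in tdTomato-positive over GFP-positive, from 0.31 to -0.46, -0.18 and -1.91 under the 3 scalings, which shifted the median of all genes there by -0.74, -0.47 and -2.17. Without the 10 TPM filter, the background of the reporter-negative pair rose from 304 to 572 genes higher and from 370 to 761 lower. With 1 library per group and TPM only, neither replicate spread nor counting error can be given.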
